A study of Mus musculus with 12 samples.

Results

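Dendritic cells labelled p38a-knockout (KO) were compared at 4 h of Pam3CSK4 with the same label at 0 h. The comparison used the arrays whose titles give the KO label with 4 h or 0 h, 2 of each, which are 4 of the 12 arrays in the series. Lymph node dendritic cells of C57BL/6 mice had been cultured and given Pam3CSK4, a synthetic TLR2 agonist, labelled as 1 mg/ml. The other arrays are KO cells at 2 h and wild-type (WT) cells at 0, 2 and 4 h, with 2 arrays, A and B, in each of the 6 groups. The Cre driver or promoter, the deleted exon, and the age and number of animals are not given in the sources used here. Nothing in the labels says that arrays A and B came from separate animals or cultures, so the p-values measure the spread between these arrays, which may be technical. There are no untreated arrays at 4 h, and the ligand cannot be told apart from time in culture. In such bulk samples, fewer cells of a type and less RNA per cell cannot be told apart either.

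Dendritic cells take up microbes at body surfaces, move to lymph nodes and prime T cells. TLR2, paired with TLR1 or TLR6, signals through the adaptor MyD88 to NF-kB and to the MAP kinases ERK, JNK and p38. p38α, encoded by Mapk14, acts through kinases such as MK2 on the stability and translation of cytokine mRNAs and through MSK kinases on transcription. A maturing dendritic cell raises co-stimulatory molecules, secretes cytokines and chemokines, and gives up part of its capacity to take up antigen.

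Levels below are log2(quantile-normalized signal + 16), and folds are on that scale, which understates changes of dim genes. Trimmed means of the deposited signals were 89.5 and 79.7 on the KO 4 h arrays, and 119 and 75.6 on the KO 0 h arrays, so the arrays shared no common scale. Across the 12792 genes tested (genes are no independent replicates), arrays A and B correlated at r = 0.989 at 4 h and r = 0.990 at 0 h. Their highest correlation with an array of another group was almost as high, 0.987 and 0.989. The 19 dendritic cell markers summed to signals of 57490 and 56150 on the KO 4 h arrays, and to 50790 and 48060 on the KO 0 h arrays. Of the difference, Ccl22 made 3614 units and Cd86 2533, both genes of activated dendritic cells, so the sums are no measure of cell number. Ccr7, the chemokine receptor that guides dendritic cells to lymph nodes, stood at 12.94 and 12.88 at 4 h and at 12.83 and 12.88 at 0 h.

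The targeted gene Mapk14 had 6 probe sets, of which 3 lay above the expression filter. The brightest gave 8.04 and 7.93 on the KO 4 h arrays and 8.37 and 8.37 on the KO 0 h arrays. Its mean was not lower in KO than in WT cells, which gave 7.56 and 7.75 at 4 h and 8.41 and 8.02 at 0 h. These arrays therefore do not show the loss of the transcript. Where the deletion lies is unknown here, and a probe outside it checks nothing. KO below means the arrays labelled KO. The Mapk14 change of -0.39 ± 0.13 (SE) between 4 h and 0 h missed the threshold (limma, adjusted p = 0.0548).

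Of the 12792 genes, 2315 (18.1%) were called between KO 4 h and KO 0 h by limma at adjusted p under 0.05, with 926 higher (7.24%) and 1389 lower (10.9%). At least 2-fold changes numbered 146 higher and 112 lower, and at least 4-fold changes 22 higher and 2 lower. At unadjusted p under 0.05 by limma, 1458 of the 12792 genes were higher and 2267 lower. These are the background for counts of gene lists at that threshold below. The median change of all genes was -0.048. Without the KO 0 h A array, the brightest of the 4, the lower calls dropped to 890 and the higher ones to 776. Without quantile normalization, on the scale as deposited, 189 genes were higher and 664 lower, so that 22.2% of calls were higher, against 926 of 2315 here, and the median of all genes shifted to -0.198. Counts for gene lists on the deposited scale are given beside those that they change by over 1.5 times.

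Ifng, the gene of the T and NK cell cytokine interferon-gamma, had the largest rise. Its levels were 6.39 and 6.35 at 0 h, 8.03 and 8.31 after 2 h, and 11.35 and 11.43 after 4 h in KO cells. The 3 times did not overlap. From 0 h to 4 h the rise was 5.02 ± 0.11 (SE, n = 2 arrays each, adjusted p = 5.3e-14), or 32.4-fold. Next came Ebi3, whose product pairs with p28 to form IL-27, with 11.15 and 11.14 at 4 h against 7.69 and 7.74 at 0 h, a 10.8-fold rise. Tnf, the central inflammatory cytokine, stood at 9.85 and 9.79 at 4 h against 6.58 and 6.36 at 0 h, 10.2-fold higher. Ccl17, a chemokine for CCR4-bearing T cells, gave 11.17 and 11.19 at 4 h against 8.08 and 8.08 at 0 h, 8.59-fold higher. In each of these genes both 4 h arrays lay at least 3 log2 units above both 0 h arrays.

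The remaining leading rises were in genes of several kinds. Il1a, an alarmin cytokine, rose 8.01-fold, with 8.44 and 8.68 at 4 h against 5.56 and 5.56 at 0 h. Ptgs2, the cyclooxygenase of inflammatory prostaglandin synthesis, rose by 2.81, and its arrays gave 10.75 and 10.57 at 4 h against 7.83 and 7.87 at 0 h. Cd70, a co-stimulatory ligand for CD27, rose by 2.79. The G protein gamma subunit Gng4 rose by 2.71, the AMP deaminase Ampd3 by 2.54, the chemokine Ccl3 by 2.35 and the phosphatase Dusp14 by 2.30. Elobl rose by 2.58, but lay under the filter level at 0 h (4.75 and 4.68), where its size depends on the constant added.

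**Figure D1:**
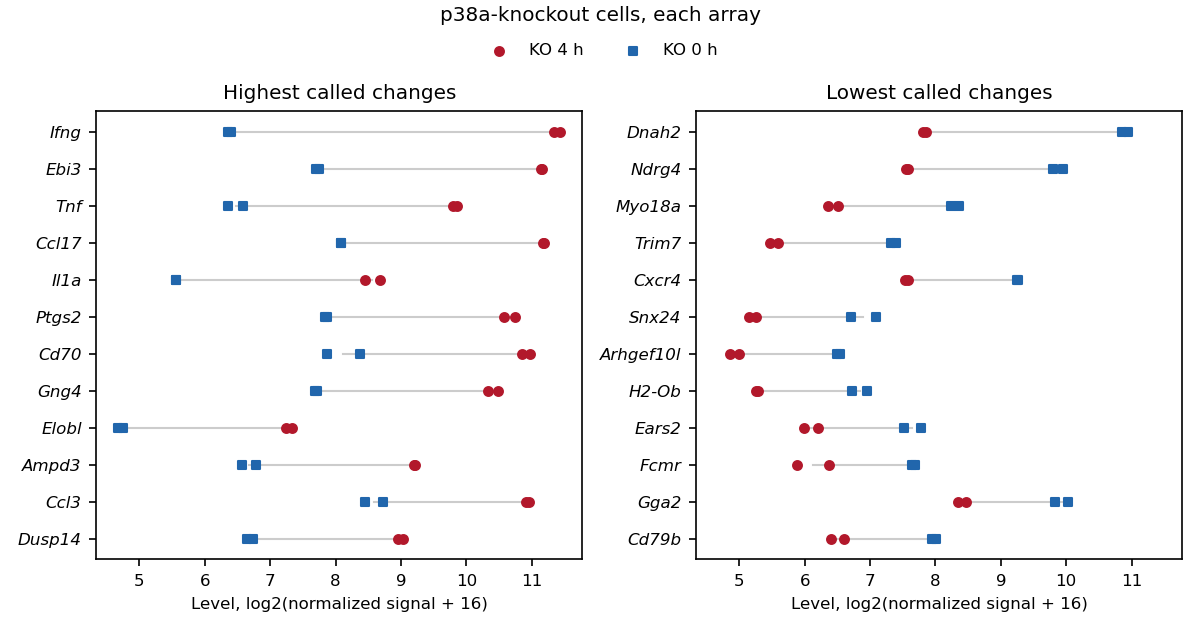
Level of each array, in log2(normalized signal + 16), for the 12 highest (left) and 12 lowest (right) called changes between KO 4 h (circles) and KO 0 h (squares); grey lines join the group means. Only genes whose 4 h and 0 h arrays do not overlap were eligible, so their separation is a rule of choice and no result. Ifng spans the widest gap.

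Among the cytokines, 17 of 29 tested members rose and 0 fell (limma; 18 and 1 at unadjusted p under 0.05; 10 and 0 on the deposited scale). The risers include Il12a and Il23a, which passed the filter mainly through arrays of stimulated cells, so the count is partly fixed by the filter. The list's median change was 0.65, against -0.05 over all genes. The other 7 of 36 cytokines with a probe set, such as Il4, Il5 and Il13, lay below the filter, so the list is not the full family.

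In the IL-12 family, Il12b, the p40 subunit of IL-12 and IL-23, gave 11.44 and 11.00 at 4 h against 9.33 and 9.60 at 0 h, a rise of 1.75 ± 0.18 (adjusted p = 4.66e-06). Il12a, the p35 subunit of IL-12, rose by 2.18 with 6.43 and 6.64 at 4 h, and was below the filter level at 0 h with 4.38 and 4.34. Il23a, for the p19 chain of IL-23, rose by 1.11 and was likewise below the filter level at 0 h. Il12a and Il23a passed the filter mainly through arrays of stimulated cells, so their calls were partly fixed by it.

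Several colony-stimulating factors and other cytokines were called as well. Csf2, which encodes GM-CSF, rose 4.35-fold, with 8.98 and 8.85 at 4 h against 6.87 and 6.72 at 0 h. Il6, which drives acute-phase and TH17 responses, rose 2.37-fold from an already bright level, with 12.09 and 12.03 at 4 h and 10.81 and 10.82 at 0 h. Lif (0.85), Csf1 (0.73), the IL-1 receptor antagonist Il1rn (0.70) and Csf3 (0.65) were called too, each of them not on the deposited scale. Il17a, a cytokine of TH17 and gamma-delta T cells, rose by 2.23 ± 0.15 (adjusted p = 4.98e-08), with 7.89 and 7.69 at 4 h against 5.38 and 5.73 at 0 h.

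Smaller rises hung on single arrays and were not called on the deposited scale. Il10, the anti-inflammatory cytokine, was dim, with 5.97 and 5.86 at 4 h against 5.46 and 4.98 at 0 h. Its rise of 0.70 (adjusted p = 0.0138) was lost without KO 0 h B (adjusted p = 0.172) or without KO 4 h A (0.0895). Il15 rose by 0.33, a call lost without KO 0 h B (0.0787) or KO 4 h A (0.123). Il1b, 10.94 and 10.97 at 4 h against 10.63 and 10.54 at 0 h, rose by 0.37, a call lost without KO 0 h B (0.0546). Il18 (0.44, adjusted p = 0.0674) and Tgfb2 (-0.44, 0.056) did not pass, and neither did Ifnb1, the gene of interferon-beta (-0.07 ± 0.23, 0.891).

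The timing differed between these genes, as the comparison of KO 4 h with KO 2 h shows. It shares the 4 h arrays with the comparison against 0 h, so the values are set side by side and counted separately. Between 4 h and 2 h, 1754 genes (13.7%) were called, 827 higher (6.46%) and 927 lower (7.25%), with 43 and 62 at least 2-fold. On the deposited scale 260 were higher and 43 lower, which turned the share of higher calls to 85.8%, and its median over all genes was 0.201. The counts were 533 and 584 without KO 2 h A, 457 and 553 without KO 2 h B, 497 and 663 without KO 4 h A, and 366 and 539 without KO 4 h B.

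Ifng rose further after 2 h, by 3.22 (adjusted p = 8.11e-11). Il17a gave 5.38 and 5.73 at 0 h, 6.22 and 6.60 after 2 h, and 7.89 and 7.69 after 4 h, a later rise of 1.38 (2.44e-05). Il12a rose by a further 0.58 (0.0371) and Il6 by 0.25 (0.0112). Other cytokines were past their 2 h level. Tnf was lower at 4 h than at 2 h by 0.46 (0.0265), Csf3 by 1.27, Lif by 0.89 and Il23a by 0.93, while all 4 remained above 0 h. For Il1a (0.03, 0.922), Csf2 (0.13, 0.468) and Il12b (-0.13, 0.707), no change between 2 h and 4 h passed the test. Osm, which encodes oncostatin M, was higher at 4 h than at 2 h by 1.13 (1.9e-05) but not than at 0 h (-0.05), with 2 h arrays at 6.79 and 6.76.

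**Figure D2:**
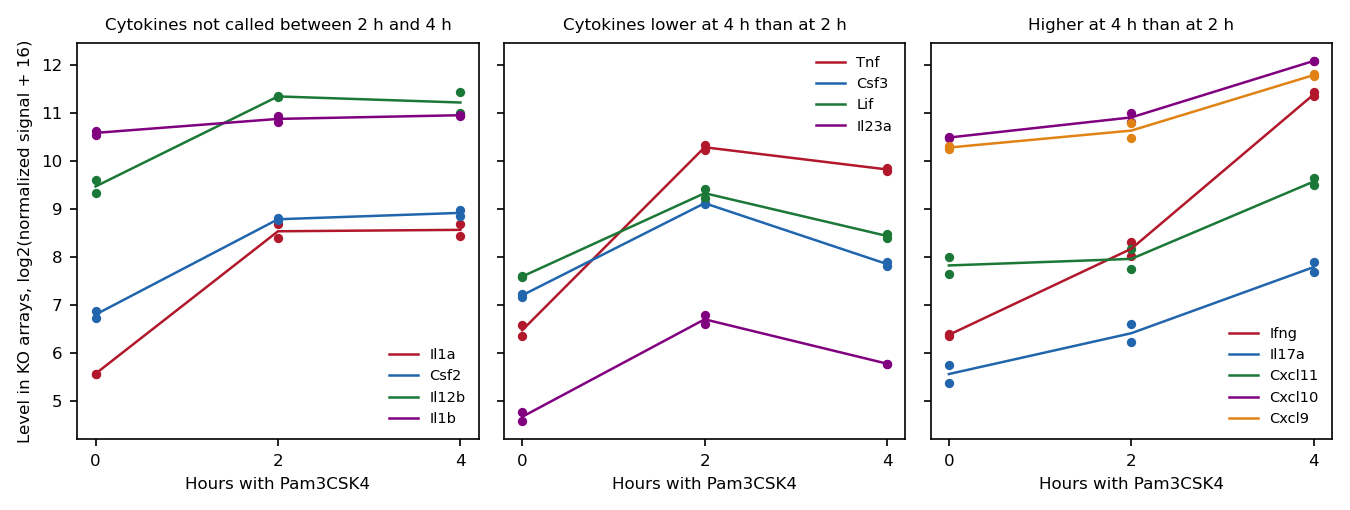
Level in KO arrays, in log2(normalized signal + 16), against hours with Pam3CSK4; points are single arrays and lines join the means of 2 arrays per time. The panels show cytokines with no call between 2 h and 4 h, cytokines lower at 4 h than at 2 h, and Ifng, Il17a, Cxcl9, Cxcl10 and Cxcl11, which were higher at 4 h than at 2 h.

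Genes known as targets of interferon-gamma were raised at 4 h. Interferon-gamma is known to induce guanylate-binding proteins (Gbp genes) and immunity-related GTPases (Irgm1, Irgm2, Igtp), which attack vacuoles of intracellular microbes, and the CXCR3 ligands Cxcl9, Cxcl10 and Cxcl11, which attract T and NK cells. Of 21 tested targets, 19 rose and 0 fell at 4 h against 0 h (limma; 19 and 0 at unadjusted p under 0.05), with a median of 0.62. The count was 15 to 17 when any single KO 4 h or KO 0 h array was left out, and 6 higher and 0 lower on the deposited scale, where the median was 0.51. Against 2 h, 15 were higher and 1 lower, with a median of 0.60. Against 0 h, KO 2 h arrays had 7 higher and 3 lower, with a median of 0.14. Over all 12792 genes, KO 2 h against 0 h had 1004 higher and 1499 lower, with a median of -0.058. The list shares Cxcl9, Cxcl10 and Cxcl11 with the chemokines and Cd274, Socs1, Ciita and Irf8 with other lists. Ifng and its targets were both measured in mixed bulk RNA, and a link between them was not tested.

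Cxcl10 gave 10.51 and 10.47 at 0 h, 10.81 and 11.01 after 2 h, and 12.10 and 12.08 after 4 h. Cxcl9 gave 10.24 and 10.32 at 0 h, 10.48 and 10.79 after 2 h, and 11.78 and 11.81 after 4 h. Cxcl11 gave 7.99 and 7.65 at 0 h, 7.75 and 8.17 after 2 h, and 9.65 and 9.49 after 4 h. For all 3 the arrays at 4 h stood clear of both earlier times, while Cxcl11 at 2 h overlapped 0 h. Their rises over 0 h were 1.60 ± 0.09, 1.51 ± 0.12 and 1.75 ± 0.14, with adjusted p of 3.42e-09, 2.59e-07 and 2.65e-07. The GTPase gene Ifi47 was higher at 4 h by 0.89 against 0 h and by 0.60 against 2 h. Gch1, which makes the cofactor for nitric oxide synthesis, rose by 1.06 over 0 h but was lower at 4 h than at 2 h by 0.57. The transcription factor Irf8 rose by 0.43 and the class II transactivator Ciita by 0.62, neither of them called on the deposited scale, and Ciita also lost its call without KO 0 h A (adjusted p = 0.0532). Ido1 (0.26 ± 0.13, adjusted p = 0.186) and Serping1 (-0.09, 0.685) did not pass.

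Genes named for the type I interferon response did not share this pattern. Of 36 tested members, 3 rose (Isg20 0.66, Usp18 0.43, Parp14 0.41) and 3 fell (Oasl1 -0.53, Bst2 -0.34, Samhd1 -0.21), shares near those of all genes. The Samhd1 call was lost without any one of the KO 4 h and KO 0 h arrays. The median was 0.07, but -0.06 on the deposited scale, where 0 of them were called in either direction. Usual indicators gave 0.04 for Ifit1, 0.10 for Mx1 and -0.10 for Rsad2, none of which passed.

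Promoters of the interferon-gamma targets are shown because they carry the motifs this pathway is known for. RefSeq promoters (GRCm38.p6, 250 bases before to 50 bases after the start) were matched for 10324 of the 12792 tested genes. Letters were searched on both strands: GAAANNGAAA for ISRE, the IRF-type element, TTCNNNGAA for GAS, the interferon-gamma-activated element, GGGANNNNCC for kB, the NF-kB element, TGANTCA for AP-1 and TGACGTCA for CRE. Matches may overlap. A gene was counted once if any of its promoters matched, and some genes have several promoters. Of the 14 interferon-gamma targets with a promoter, 8 (57.1%) held the ISRE letters and 5 (35.7%) the GAS letters. Among all 10324 genes with a promoter the shares were 3.74% and 8.21%. The mean GC content was 53.9% in the list and 60.3% over all these genes. The part of GC content and of the number of promoters per gene in these shares was not tested. The promoters of Cxcl10, Gbp7, Igtp and Irgm1 follow, 5′ to 3′ on the strand of the gene, with matches to any of the 5 motifs in capitals. They were chosen after their motifs and values were seen. Cxcl10 lies at chr5:92348840-92349139 on the minus strand, Gbp7 at chr3:142530086-142530385 on the plus strand, Igtp at chr11:58199306-58199605 on the plus strand and Irgm1 at chr11:48871371-48871670 on the minus strand.
Cxcl10: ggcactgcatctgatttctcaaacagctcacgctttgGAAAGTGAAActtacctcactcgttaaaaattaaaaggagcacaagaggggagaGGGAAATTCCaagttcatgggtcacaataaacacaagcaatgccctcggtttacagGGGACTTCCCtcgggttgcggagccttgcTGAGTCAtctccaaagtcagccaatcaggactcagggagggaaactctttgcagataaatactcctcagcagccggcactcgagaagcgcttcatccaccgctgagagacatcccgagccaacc
Gbp7: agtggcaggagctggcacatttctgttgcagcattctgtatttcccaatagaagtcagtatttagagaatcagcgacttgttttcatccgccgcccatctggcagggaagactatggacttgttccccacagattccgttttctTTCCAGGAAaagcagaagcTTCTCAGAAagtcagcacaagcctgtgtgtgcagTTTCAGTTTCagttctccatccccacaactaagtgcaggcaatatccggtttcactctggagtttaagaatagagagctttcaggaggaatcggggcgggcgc
Igtp: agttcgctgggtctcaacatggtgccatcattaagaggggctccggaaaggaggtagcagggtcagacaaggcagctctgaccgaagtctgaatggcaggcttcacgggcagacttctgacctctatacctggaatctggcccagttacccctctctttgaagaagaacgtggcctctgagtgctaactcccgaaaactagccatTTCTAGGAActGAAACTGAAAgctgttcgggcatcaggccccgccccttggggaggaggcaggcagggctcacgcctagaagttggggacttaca
Irgm1: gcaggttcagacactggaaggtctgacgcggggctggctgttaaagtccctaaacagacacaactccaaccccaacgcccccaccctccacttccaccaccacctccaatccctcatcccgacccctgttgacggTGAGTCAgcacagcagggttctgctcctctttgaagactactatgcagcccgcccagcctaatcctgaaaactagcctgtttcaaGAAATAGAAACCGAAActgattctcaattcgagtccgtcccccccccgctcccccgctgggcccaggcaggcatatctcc

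In these sequences Cxcl10 has 1 ISRE, 2 kB and 1 AP-1 match. Gbp7 has 1 ISRE and 2 GAS matches, Igtp has 1 of each, and Irgm1 has 2 ISRE matches and 1 AP-1 match. Gbp7 gave 10.80 and 10.80 at 4 h against 10.08 and 10.22 at 0 h, a rise of 0.65. Igtp gave 11.70 and 11.50 at 4 h against 10.88 and 11.05 at 0 h, a rise of 0.64. Irgm1 gave 10.60 and 10.71 at 4 h against 9.89 and 10.09 at 0 h, a rise of 0.67. In all 3, the arrays of the 2 times were apart. A match is a description of letters and no evidence of binding.

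The kB and AP-1 letters were counted in the same way, and were held by 35.7% and 28.6% of the interferon-gamma targets. Of 21 cytokine genes with a promoter, 52.4% held the kB and 33.3% the AP-1 letters. Of 23 chemokine genes with a promoter, 43.5% and 26.1% held them, against 30.2% and 6.82% of all genes with a promoter. No cytokine promoter matched the ISRE letters. Among the 112 genes with a promoter that were at least 2-fold higher, 38.4% held kB and 14.3% AP-1 letters. Among the 89 that were at least 2-fold lower, the shares were 33.7% and 6.74%. Mean GC content was 51.6%, 51.8%, 55.9% and 59.6% in these 4 sets, and its part was not tested. Ebi3, at chr17:55952373-55952672 on the plus strand, is shown as the strongest riser among the IL-12 family, with both of its matches of the kB kind.
Ebi3: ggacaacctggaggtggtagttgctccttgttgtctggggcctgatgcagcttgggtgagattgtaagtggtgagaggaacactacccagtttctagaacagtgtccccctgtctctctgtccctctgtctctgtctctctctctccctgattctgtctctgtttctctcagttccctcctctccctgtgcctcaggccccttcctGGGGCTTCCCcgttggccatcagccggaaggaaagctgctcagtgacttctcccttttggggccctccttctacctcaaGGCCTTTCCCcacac

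Chemokine genes moved in 2 directions. Of 30 tested, 16 rose and 2 fell, with a median of 0.40. Ccl17 and Ccl3 led, and the CXCR3 ligands are given above. The neutrophil chemokine Cxcl2 rose by 1.68, at 11.44 and 11.27 at 4 h against 9.73 and 9.62 at 0 h. Cxcl2 had been higher at 2 h, by 0.86 (adjusted p = 1.7e-06). Ccl22, a second CCR4 ligand, rose by 1.03 and Xcl1, made by NK cells and CD8 T cells, by 0.83. The Xcl1 call was lost on the deposited scale (adjusted p = 0.0784). The fallers were Cxcl16, the membrane-bound ligand of CXCR6 (-0.81), and the platelet chemokine Pf4 (-0.62), whose call was lost without KO 0 h B (adjusted p = 0.0877) or KO 4 h A (0.126). Ccl5 stayed bright with no call (0.05, adjusted p = 0.57).

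Among 15 receptors, Cxcr4, the receptor for CXCL12, fell most. It gave 7.54 and 7.58 at 4 h against 9.25 and 9.27 at 0 h, a decrease of -1.70 ± 0.09 (adjusted p = 4.29e-09). Cxcr3 fell by 0.57, a call lost without KO 0 h B (0.0571). Ccrl2, which binds chemerin, rose by 1.11 and Cxcr5, the follicle-homing receptor, by 1.09. Ccr2, a monocyte receptor, did not pass (-0.34, adjusted p = 0.229).

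Of 24 co-stimulatory and co-inhibitory genes, 15 rose and 2 fell, with a median of 0.73, against 11 and 1 on the deposited scale. Cd40, the receptor for T cell help, gave 12.41 and 12.42 at 4 h against 10.44 and 10.54 at 0 h, 3.78-fold higher. Cd86, a ligand of CD28, gave 11.90 and 11.90 at 4 h against 10.40 and 10.27 at 0 h, 2.96-fold higher. Neither pair of times overlapped. Cd40 did not change further after 2 h by the test (-0.06, adjusted p = 0.674), whereas Cd86 rose by another 0.32 (0.00323). Tnfsf9, the ligand of 4-1BB, gave 7.43 and 7.35 at 0 h, 10.61 and 10.61 after 2 h, and 9.38 and 9.21 after 4 h. Its receptor gene Tnfrsf9 fell by 0.70 at 4 h against 0 h, a call lost with the mean of all its probe sets (0.103), which disagree in sign. The TNF superfamily as a whole had 8 higher and 3 lower of 29, with 6 and 1 on the deposited scale, where its median turned to -0.02 from 0.14 here. Cd200r1, an inhibitory receptor, fell by 1.12. Cd83, a maturation marker already bright at 0 h, stood at 12.53 and 12.45 at 4 h and at 12.36 and 12.47 at 0 h (0.07, adjusted p = 0.465).

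**Figure D3:**
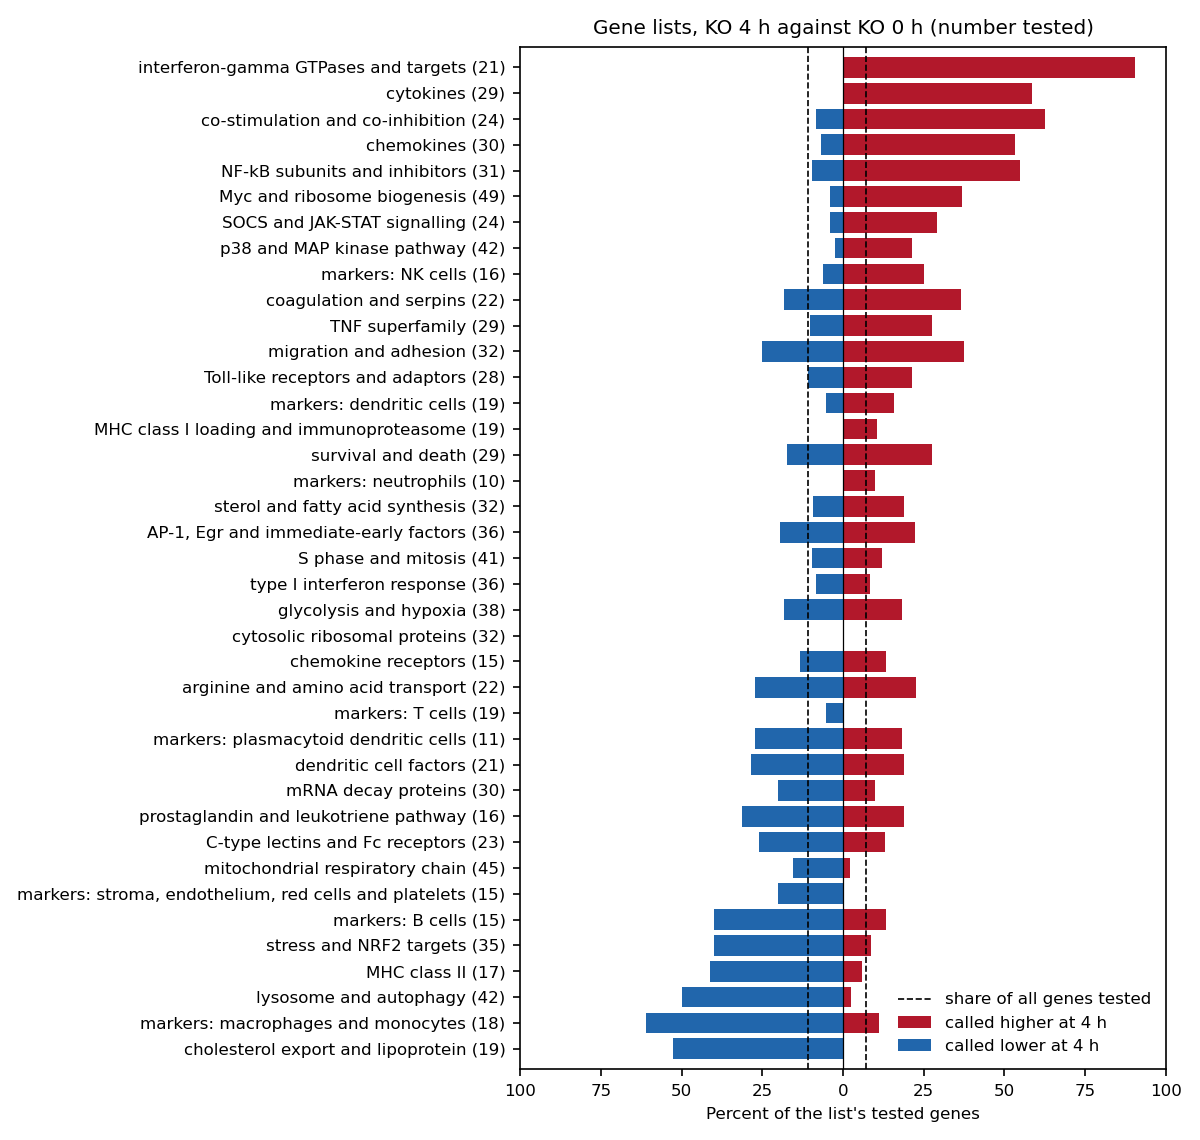
Share of each list's tested genes called higher (right) and lower (left) at KO 4 h against KO 0 h, in percent, with the number tested in brackets; dashed lines mark 7.24% and 10.9%, the shares over all genes. The interferon-gamma targets have the highest share of rises and the macrophage markers the highest share of falls; on the deposited scale the medians of some lists near 0, such as the p38 pathway and Toll-like receptors, change sign.

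NF-kB subunits and regulators rose in 17 of 31 cases and fell in 3, with a median of 0.36. Only 4 rose and 1 fell on the deposited scale, where the median was 0.19. Nfkbiz, an atypical IkB protein needed for Il6 transcription, gave 11.37 and 11.46 at 4 h against 9.69 and 9.42 at 0 h, 3.63-fold higher. Zc3h12a, the RNase Regnase-1, rose by 1.38, Tnfaip3, the ubiquitin editor A20, by 0.92, and Tnip1, its partner, by 0.78. Map3k14, the kinase NIK of the non-canonical pathway, fell by 1.14, with 9.58 and 9.49 at 0 h, 7.37 and 7.06 after 2 h, and 8.26 and 8.53 after 4 h. Its level at 4 h was thus between those of the earlier times. The core subunits Rela (-0.04, adjusted p = 0.752) and Rel (0.11, 0.429) did not pass.

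In the p38 and MAP kinase pathway, 9 of 42 genes rose and 1 fell, with a median of 0.02. On the deposited scale the median was -0.16, with 3 higher and 1 lower, so no direction is given for the pathway. Dusp14, a dual-specificity phosphatase, was at 6.74 and 6.65 at 0 h, 10.50 and 10.42 after 2 h, and 9.04 and 8.95 after 4 h. Map3k8, the kinase TPL2 that activates ERK downstream of TLRs, rose by 1.27 and Map2k1, the ERK kinase MEK1, by 0.86. Dusp2, a phosphatase of p38 and ERK, rose by 0.86, a call lost on the deposited scale (adjusted p = 0.0693). Dusp6, the ERK phosphatase, fell by 0.90. The other p38 isoform genes did not pass, with changes of 0.17 for Mapk11, -0.39 for Mapk12 and -0.24 for Mapk13. Dusp1, a phosphatase known to be induced through p38, gave -0.12.

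Transcription factors of the AP-1 and immediate-early kind were mixed, 8 higher and 7 lower of 36, against 3 and 4 on the deposited scale. Without KO 0 h A or without KO 4 h B, 4 were lower. The risers Batf (1.25), which with IRF4 shapes dendritic cells and TH17 cells, and Batf2 (1.13) gained most of their rise after 2 h, by 0.88 and 1.25. Jun rose by 0.90. Crem, a cAMP-responsive repressor, fell by 1.06, a call lost with the mean of its probe sets (adjusted p = 0.257), which disagree in sign. Nfil3 fell deeply and returned, with 10.37 and 10.45 at 0 h, 7.77 and 8.07 after 2 h, and 9.39 and 9.71 after 4 h. Fos gave -0.18 and Junb -0.09, neither past the test.

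Genes for mRNA decay, the process p38 restrains through MK2, were 3 higher and 6 lower of 30, against 1 and 2 on the deposited scale. The risers included the RNase gene Zc3h12a, given above, whose rise of 1.38 was the largest change of the list. Dcp2 rose by 0.62, a call lost on the deposited scale (adjusted p = 0.338). The 3 zinc-finger proteins that bind AU-rich elements all fell. Zfp36, or tristetraprolin, changed by -0.56, to a mean of 9.93 at 4 h against 10.50 at 0 h. Zfp36l1 fell by 0.41 and Zfp36l2 by 0.79. The calls of Zfp36 and Zfp36l1 were lost on the deposited scale (adjusted p = 0.0673 and 0.127), and that of Zfp36l2 with the mean of its probe sets (0.153). Btg2, which recruits the deadenylase, fell by 0.92. Elavl1, the stabilising factor HuR, rose by 0.44 and lost its call on the deposited scale (0.579). Its call was also lost with the mean of its probe sets (0.132, 0.421), of which those above the filter ran from -0.043 to 0.503.

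Receptors that sense the ligand were raised, by modest amounts. Tlr2 gave 8.24 and 8.01 at 4 h against 7.57 and 7.25 at 0 h, a rise of 0.71 ± 0.12 (adjusted p = 0.00052). The gene of its co-receptor, Cd14, rose by 0.88. Both were lower at 4 h than at 2 h, by 0.38 and 0.50. Myd88 rose by 0.45. All 3 calls were lost on the deposited scale, on which 0 of the 28 Toll-like receptor and adaptor genes were higher and 2 lower, against 6 and 3 here. Cd36, a scavenger receptor that assists TLR2 with TLR6, fell by 0.95, and the inhibitory receptor gene Sigirr by 0.72.

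Cytokine signalling genes of the SOCS and JAK-STAT list rose in 7 of 24 cases and fell in 1, with a median of 0.08. On the deposited scale 2 rose and 0 fell, and the median was -0.09. Stat5a, the main STAT of GM-CSF signalling, gave 10.04 and 10.13 at 4 h against 8.42 and 8.17 at 0 h, 3.46-fold higher. Socs3, the feedback inhibitor of gp130 cytokines, rose by 0.95. Csf2rb, the beta chain of the GM-CSF receptor, gave 11.29 and 11.48 at 4 h against 12.59 and 12.51 at 0 h, a decrease of -1.17. Csf2 and Csf2rb therefore moved in opposite directions.

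Among dendritic cell factors, 4 of 21 rose and 6 fell, against 1 and 4 on the deposited scale, and 7 rose without KO 4 h B. Irf4, which supports dendritic cell migration and antigen presentation to CD4 T cells, rose by 1.35, with 9.17 and 9.02 at 4 h against 7.69 and 7.80 at 0 h. Csf1r, the M-CSF receptor, gave 8.20 and 8.06 at 4 h against 9.23 and 9.32 at 0 h, a decrease of -1.15. Spi1, or PU.1, fell by 0.66. Flt3 (-0.20, adjusted p = 0.18) and Zbtb46 (0.26, 0.0702), which mark classical dendritic cells, did not pass.

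In the lysosome and autophagy list, 21 of 42 genes fell and 1 rose, with a median of -0.26, and on the deposited scale 7 fell and 0 rose. Lipa, the lysosomal acid lipase that frees cholesterol from lipoproteins, gave 7.59 and 7.66 at 4 h against 8.89 and 8.78 at 0 h, a decrease of -1.21 ± 0.10 (adjusted p = 3.06e-07). Atp6v0d1, a subunit of the proton pump that acidifies lysosomes, fell by 0.78 and the protease gene Ctsd by 0.64. Laptm5 fell by 0.74 in its main probe set, but a probe set without cross-hybridisation suffix gave 0.80. The counts of falls were 15 without KO 0 h A and 15 without KO 4 h B.

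Cholesterol export and lipoprotein genes fell in 10 of 19 cases and rose in 0 (limma; 12 and 1 at unadjusted p under 0.05), with a median of -0.38, and in 6 cases on the deposited scale. Each array left out among the KO 4 h and KO 0 h ones left 7 of the falls. Lpl, which splits lipoprotein triglycerides, gave 8.50 and 8.37 at 4 h against 9.38 and 9.33 at 0 h. Abca1, the exporter of cholesterol to apolipoproteins, gave 8.35 and 8.53 at 0 h, 8.76 and 8.76 after 2 h, and 7.89 and 7.63 after 4 h, so its fall of 0.68 came after 2 h. The mean of its probe sets lost the call (adjusted p = 0.0706). Apoe, the apolipoprotein, fell by 0.61. Nr1h3, the oxysterol receptor LXR alpha that drives several of these genes, gave -0.02 and did not pass.

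Markers of macrophages and monocytes, which share several of these genes, moved alongside. Of 18 tested, 11 fell and 2 rose, with a median of -0.44, and their summed signal was 7582 and 8067 on the KO 4 h arrays against 10560 and 10200 on the KO 0 h arrays. Falls numbered 5 on the deposited scale and 7 without KO 0 h A or without KO 4 h B. Besides Csf1r, Apoe and Cd68, Fcgr1, the high-affinity IgG receptor, fell by 1.08, with 6.37 and 6.07 at 4 h against 7.27 and 7.33 at 0 h. Lyz2, the lysozyme of myeloid cells, fell by 0.52, a call lost on the deposited scale (adjusted p = 0.106). Of the -2557 signal units by which the mean sum differed, Lyz1 made -924 and Lyz2 -665, while Vcam1 gave 459 and Adgre1 56. The Lyz1 call was lost on the deposited scale (0.0657) and without probe sets that may cross-hybridise (-0.045, 0.932). Vcam1 rose by 0.92, as did Adgre1, the F4/80 antigen, by 0.52, a call lost on the deposited scale (adjusted p = 0.526) and without KO 0 h A (0.0549), KO 0 h B (0.0853) or KO 4 h B (0.195). Cd163 and Siglec1, which define resident macrophages, were below the filter. The part of macrophage content in the lower lysosome, cholesterol and Fc receptor genes was not tested.

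**Figure D4:**
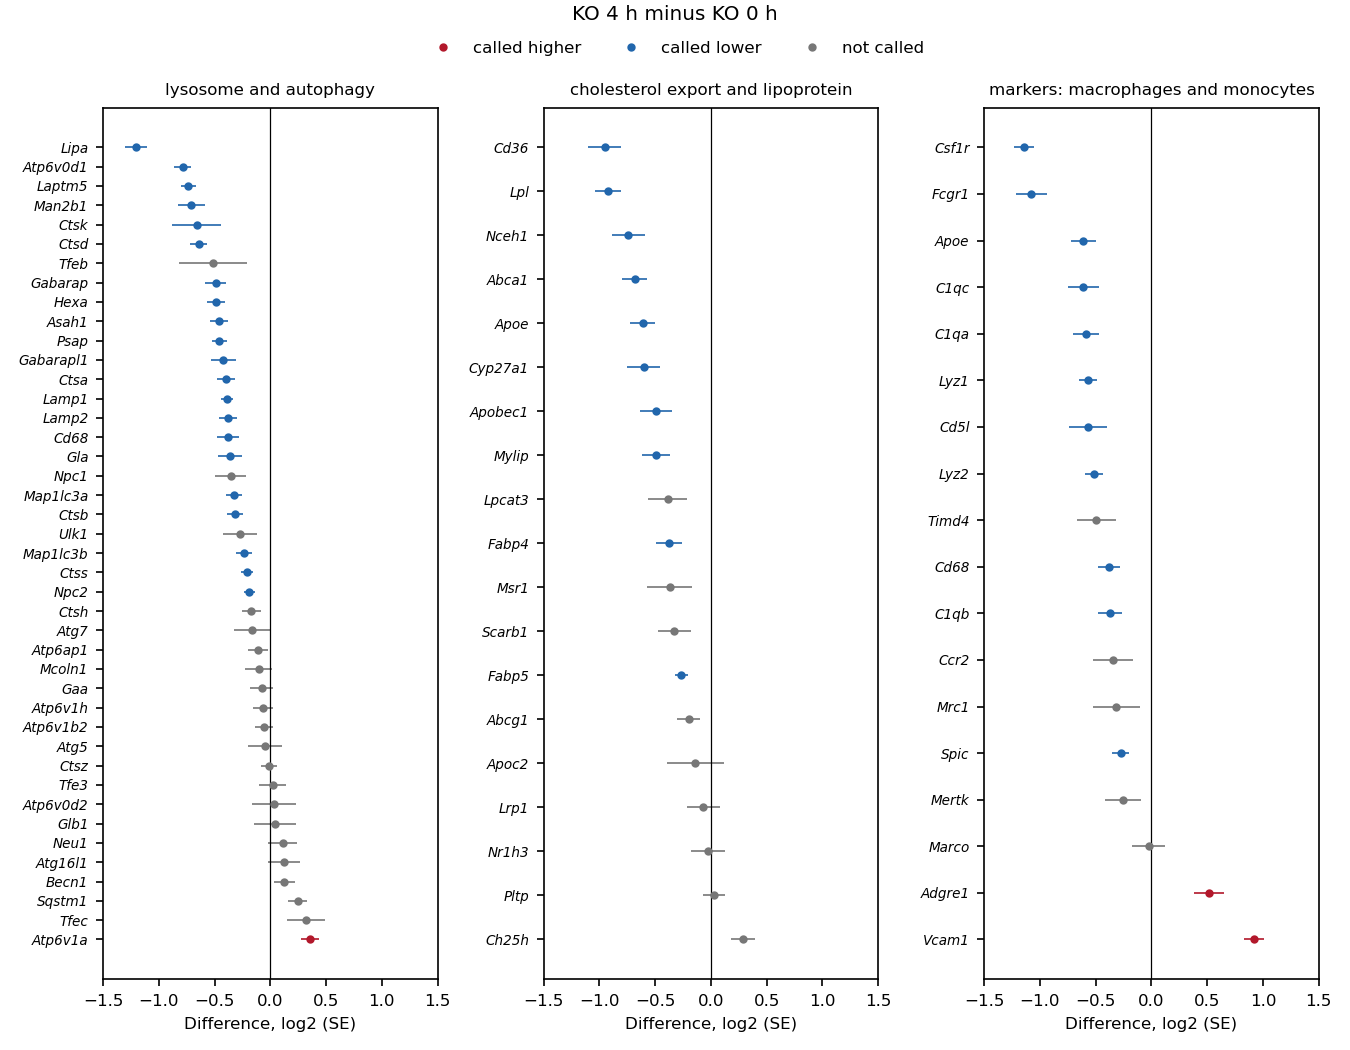
Difference between KO 4 h and KO 0 h with its standard error, on the log2 scale, for every tested gene of the lysosome, cholesterol export and macrophage marker lists; colours mark calls. Lipa, Cd36 and Csf1r have the deepest falls of their lists, and the calls are almost all on the lower side.

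Innate uptake receptors split by gene. Clec4e, the receptor Mincle for mycobacterial glycolipids, rose by 1.68, with 10.22 and 10.04 at 4 h against 8.49 and 8.40 at 0 h. Clec7a, the beta-glucan receptor Dectin-1, gave 10.30 and 10.20 at 4 h against 11.14 and 11.12 at 0 h, a decrease of -0.88, and Clec4n, or Dectin-2, fell by 0.89. Over the list of 23, 3 rose and 6 fell.

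The MHC class II list, which also holds the transactivator Ciita and the proteases Ctsl and Ctss, did not follow the co-stimulators. Of 17 tested, 1 rose, which was Ciita, and 7 fell, among them Ctsl and Ctss, against 0 and 3 on the deposited scale. The falls numbered 3 without KO 0 h A, without KO 4 h A or without KO 4 h B. H2-Ob, a chain of the inhibitor H2-O that is made mostly by B cells and some dendritic cells, gave 5.29 and 5.25 at 4 h against 6.95 and 6.73 at 0 h, 0.336 of its level at 0 h. Ifi30, the thiol reductase of antigen processing, fell by 0.47, a call lost on the deposited scale (adjusted p = 0.0591). The fall of Ctss by 0.21 was lost on the deposited scale (0.385), with trimmed-mean scaling (-0.10, 0.566), with eBayes without trend (0.139), and without KO 0 h A (0.0951), KO 4 h A (0.0641) or KO 4 h B (0.0801). The bright chains H2-Ab1 (0.09), H2-Aa (-0.01), H2-Eb1 (-0.16) and the invariant chain Cd74 (-0.10) did not pass. In the class I list 2 of 19 rose, the transactivator Nlrc5 (0.62) and Cd1d1 (0.82), and 0 fell, with 5 and 1 at unadjusted p under 0.05 by limma and 0 calls on the deposited scale.

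Markers of other cell types show what else the RNA held. B cell markers gave 2 higher and 6 lower of 15, led by Cd79b, part of the B cell receptor, at 6.60 and 6.40 at 4 h against 7.95 and 8.01 at 0 h. Their summed signals were 3527 and 3514 at 4 h and 3816 and 4122 at 0 h, and Pax5 was below the filter. The 2 risers were Cxcr5 (1.09) and Fcer2a (1.05). Of the -449 signal units by which the mean B cell sum differed, Ighm, which was not called, made -175, Cd79b -162 and Spib -159. Cxcr5 gave 149 and Fcer2a 30. The Spib call was lost on the deposited scale (adjusted p = 0.272). NK markers gave 4 higher and 1 lower of 16, against 2 and 1 on the deposited scale, with sums of 4377 and 4684 at 4 h and 4006 and 3616 at 0 h. Among them were Tbx21 (1.27), the factor T-bet that drives Ifng, and Ncr1 (0.93), an NK receptor, at 6.87 and 6.95 at 4 h against 6.08 and 5.88 at 0 h. Klrd1, another NK receptor, fell by 0.91.

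T cell markers gave 0 higher and 1 lower of 19 (limma; 0 and 2 at unadjusted p under 0.05), the faller being Il7r (-0.81), and their sums were 2921 and 2865 at 4 h and 3874 and 3686 at 0 h. Cd3e (-0.17) and Cd8a (-0.01) did not pass. Il7r alone made -713 of the -887 signal units by which the mean T cell sum differed. In the NK sum, higher by 720 units, Xcl1 gave 479, Gzmb 475 and Klrd1 -285. The Xcl1 and Gzmb calls were lost on the deposited scale (adjusted p = 0.0784 and 0.257). The part of T and NK cells in the Ifng and Il17a values was not tested. Neutrophil markers had 1 riser in 10, S100a8 (1.67), with sums of 3113 and 3063 at 4 h and 2781 and 2398 at 0 h. Dendritic cell markers had 3 higher and 1 lower of 19. Plasmacytoid markers, 2 higher and 3 lower of 11 but 1 and 0 on the deposited scale, summed to 10580 and 10280 at 4 h and 10960 and 11130 at 0 h, and stromal ones, 0 higher and 3 lower of 15 (limma; 1 and 3 at unadjusted p under 0.05), to 1831 and 1736 at 4 h and 1797 and 1962 at 0 h.

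Eicosanoid genes diverged around Ptgs2. The 5-lipoxygenase partner Alox5ap fell by 0.69, with 8.10 and 8.11 at 4 h against 8.84 and 8.75 at 0 h, and the prostaglandin transporter Slco2a1 by 0.71. In the list of 16, 3 rose and 5 fell, against 1 and 3 on the deposited scale, and 2 or 3 fell without any one of the KO 4 h and KO 0 h arrays. Hpgd, which inactivates prostaglandins, fell by 0.91 near the filter level and lost its call without KO 0 h A (adjusted p = 0.118), KO 0 h B (0.0942) or KO 4 h B (0.203).

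Of 32 adhesion genes, 12 rose and 8 fell, against 8 and 3 on the deposited scale. The tetraspanins parted: Cd82 rose by 1.67, Cd81 by 1.21 and Tspan33 by 1.18, whereas Cd9 fell by 0.50 and Cd151 by 0.49. Cd82 gave 10.88 and 10.89 at 4 h against 9.25 and 9.19 at 0 h, although its lowest probe set gave -0.25. The calls of Cd9 and Cd151 were lost on the deposited scale (adjusted p = 0.0835 and 0.111). Cd151 is read by a probe set that may cross-hybridise, and its probe sets above the filter ran from -0.696 to 0.365. Cd44, the hyaluronan receptor, rose by 0.93, and the integrin gene Itga6 fell by 0.84.

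Genes of growth and metabolism changed in smaller steps. Ribosome biogenesis genes and Myc rose in 18 of 49 cases and fell in 2, with a median of 0.35. KO 2 h against 0 h had 6 higher and 2 lower, and KO 4 h against 2 h 12 higher and 2 lower. Over all 12792 genes these comparisons had 1004 higher and 1499 lower, and 827 higher and 927 lower. None rose on the deposited scale, where 1 fell and the median was 0.17, and 11 to 14 rose when any single KO 4 h or KO 0 h array was left out. Nolc1, a nucleolar chaperone, gave 7.24 and 7.15 at 0 h, 7.35 and 7.09 after 2 h, and 7.93 and 8.04 after 4 h, a rise of 0.79 over 0 h. Mxd1, which opposes Myc, fell by 0.70 against 0 h and was higher at 4 h than at 2 h by 0.96. Cytosolic ribosomal proteins had 0 calls in 32 (limma; 0 higher and 1 lower at unadjusted p under 0.05), and the respiratory chain had 1 higher and 7 lower of 45, with 0 calls on the deposited scale and 2 to 4 falls without any one KO 4 h or KO 0 h array.

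Glucose and arginine genes were mixed. Hk2, the inducible hexokinase, rose by 1.03, with 8.37 and 8.34 at 4 h against 7.34 and 7.31 at 0 h. The later glycolytic enzymes Tpi1 (-0.52) and Pkm (-0.40) fell, calls that the deposited scale lost (adjusted p = 0.0852 and 0.188). The whole list had 7 higher and 7 lower of 38, against 2 and 3 on the deposited scale. Arg2, the mitochondrial arginase, rose by 1.58, with 8.69 and 8.70 at 4 h against 7.08 and 7.14 at 0 h, in a list with 5 higher and 6 lower of 22, against 1 and 2 on the deposited scale. Sterol synthesis genes had 6 higher, such as Idi1 (0.66), and 3 lower, the desaturases Scd1 (-0.58), Scd2 (-0.74) and Fads1 (-0.72), of 32, and 0 and 3 on the deposited scale. With the mean of all probe sets the falls of Scd2 (-0.16, adjusted p = 0.472) and Fads1 (-0.28, 0.0911) were lost, and that of Scd1 without KO 0 h B (0.0817) or KO 4 h A (0.0683).

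Stress and NRF2 targets fell in 14 of 35 cases and rose in 3, with 4 and 1 on the deposited scale. Gpx4, the peroxidase that protects membranes from lipid peroxides, gave 10.61 and 10.52 at 4 h against 11.40 and 11.34 at 0 h, a decrease of -0.80. Hmox1, the heme oxygenase, fell by 0.70. Sod2, the mitochondrial superoxide dismutase and an NF-kB target, rose by 0.94 in the same list. Survival genes had 8 higher and 5 lower of 29, against 3 and 2 on the deposited scale, with Bcl2l1, which encodes BCL-XL, 2.58-fold higher and the BH3-only gene Pmaip1, or Noxa, lower by 0.74.

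Cell cycle genes had 5 higher and 4 lower of 41, against 2 and 2 on the deposited scale. Mki67, the proliferation antigen, gave 6.84 and 6.78 at 0 h, 10.42 and 10.46 after 2 h, and 8.82 and 8.98 after 4 h. Ccnd2, cyclin D2, rose by 1.33, whereas the centromere histone gene Cenpa fell by 1.31. Other mitotic genes such as Top2a (0.13), Cdk1 (0.12) and Plk1 (0.01) did not pass. Coagulation genes and serpins had 8 higher, such as Procr, the protein C receptor, 2.86-fold, and Plat, the tissue plasminogen activator, 2.06-fold, and 4 lower, such as Serpinb1a (-0.85), of 22, with 2 and 4 on the deposited scale.

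Cxcr4, H2-Ob and Cd79b were among the 12 deepest falls, and the other 9 belonged to no list of this report. Dnah2, a dynein heavy chain gene, gave 7.86 and 7.80 at 4 h against 10.85 and 10.94 at 0 h, a decrease of -3.06 ± 0.10 (adjusted p = 1.26e-11). A second probe set of the gene gave 0.20, so the transcript read is uncertain. Ndrg4 gave 7.57 and 7.54 at 4 h against 9.80 and 9.95 at 0 h, a decrease of -2.32, and fell further after 2 h by 1.41. Myo18a, a myosin, fell by 1.87, Trim7, a ubiquitin ligase, by 1.83 and Snx24, a sorting nexin, by 1.69. Ears2, the mitochondrial glutamyl-tRNA synthetase (-1.55), Fcmr, the IgM Fc receptor (-1.54), and Gga2, a Golgi sorting adaptor (-1.53), fell as well.

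Outside the cytokines, further changes after 2 h were led by Psd3 (1.87), Gpr33 (1.68), Gpr65 (1.67) and Nfil3 (1.63) upward. Gpr65, an acid-sensing receptor, gave 9.62 and 9.47 at 0 h, 7.26 and 7.45 after 2 h, and 8.83 and 9.22 after 4 h. Downward, Uba6, an enzyme that activates ubiquitin, gave 7.54 and 7.28 at 0 h, 9.60 and 9.42 after 2 h, and 7.54 and 7.57 after 4 h, so its 4 h arrays overlapped those of 0 h. Sele, or E-selectin, gave 7.36 and 7.54 at 0 h, 9.26 and 9.21 after 2 h, and 7.63 and 7.83 after 4 h. The histone gene H1f2 was lower at 4 h than at 2 h by 1.46.

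Mir155hg, the host transcript of the inflammatory microRNA miR-155, was chosen after its values were seen. It gave 8.29 and 8.10 at 0 h, 10.38 and 10.43 after 2 h, and 9.73 and 9.85 after 4 h, a rise over 0 h of 1.60 ± 0.09 (adjusted p = 5.56e-09). The probe set reads the host transcript and not the mature microRNA. The RefSeq mature sequence is shown, at chr16:84714143-84714165 on the plus strand (GRCm38.p6), with the seed, bases 2 to 8, in capitals.
mmu-miR-155-5p: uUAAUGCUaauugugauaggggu

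Most genes called at 4 h in KO cells were called in the same direction in WT cells. Of the 926 genes higher in KO cells, 716 (77.3%) were also among the 1063 higher in WT cells (67.4% of those), and of the 1389 lower, 879 (63.3%) were among the 1267 lower in WT cells (69.4%). Only 1 gene higher and 3 lower in KO cells were called the other way in WT cells. The changes correlated at r = 0.757 across genes, a description only: the comparisons share no arrays, but genes are not independent and all arrays were normalized together. Ifng rose by 5.02 in KO cells and 4.80 in WT cells, and its difference was 0.22 ± 0.15 (adjusted p = 0.922). For Il17a the rises were 2.23 in KO cells and 1.34 in WT cells, with a difference of 0.89 ± 0.22 (0.365). For Tnf they were 3.35 and 2.86 in KO and WT cells, with a difference of 0.49 ± 0.18 (0.712).

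The test of the difference itself, KO response minus WT response, called 6 genes (0.0469%), 2 with a higher response in KO cells (0.0156%) and 4 with a lower one (0.0313%). At unadjusted p under 0.05 there were 278 and 497. None of the 6 was called with KO 4 h A or with WT 4 h A left out, with eBayes without trend, or with the mean of all probe sets, and on the deposited scale 0 and 2 were.

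Malt1, the paracaspase of the CARD-BCL10 complex that feeds NF-kB, rose in KO cells, with 9.85 and 9.82 at 4 h against 8.99 and 9.04 at 0 h. In WT cells it gave 9.72 and 9.68 at 4 h against 9.89 and 9.86 at 0 h. The responses were 0.82 in KO cells and -0.17 in WT cells, and they differed by 0.99 ± 0.12 (adjusted p = 0.00501). The genotypes were thus apart at 0 h and near each other at 4 h. The call of the KO rise of Malt1 was lost on the deposited scale (0.66, adjusted p = 0.0852). Chrac1, a chromatin remodelling subunit, differed by 0.90, with responses of 0.43 in KO cells and -0.46 in WT cells. It is read by a probe set that may cross-hybridise, and its KO rise was lost on the deposited scale (0.26, adjusted p = 0.629), without such probe sets (0.22, 0.273) and without KO 0 h A (0.0813).

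Ccl6, a myeloid chemokine, was the opposite case. It gave 7.58 and 7.76 in KO cells at 4 h against 7.03 and 6.98 at 0 h, and 8.10 and 7.82 in WT cells at 4 h against 5.97 and 5.96 at 0 h. Both genotypes rose, and the KO response was lower by 1.33 ± 0.17 (adjusted p = 0.00501). The call of the KO rise of Ccl6 was lost on the deposited scale (0.46, adjusted p = 0.32). Sphk1, which makes sphingosine 1-phosphate, responded by 0.17 in KO cells and 1.26 in WT cells, Col27a1, a fibrillar collagen, by 1.48 and 2.37, and Cd81 by 1.21 and 1.84. In all 4 genes the KO arrays at 0 h were above the WT arrays at 0 h. Macrophage markers summed to 10560 and 10200 in KO cells and to 6567 and 6411 in WT cells at 0 h. Their part in these differences was not tested.

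**Figure D5:**
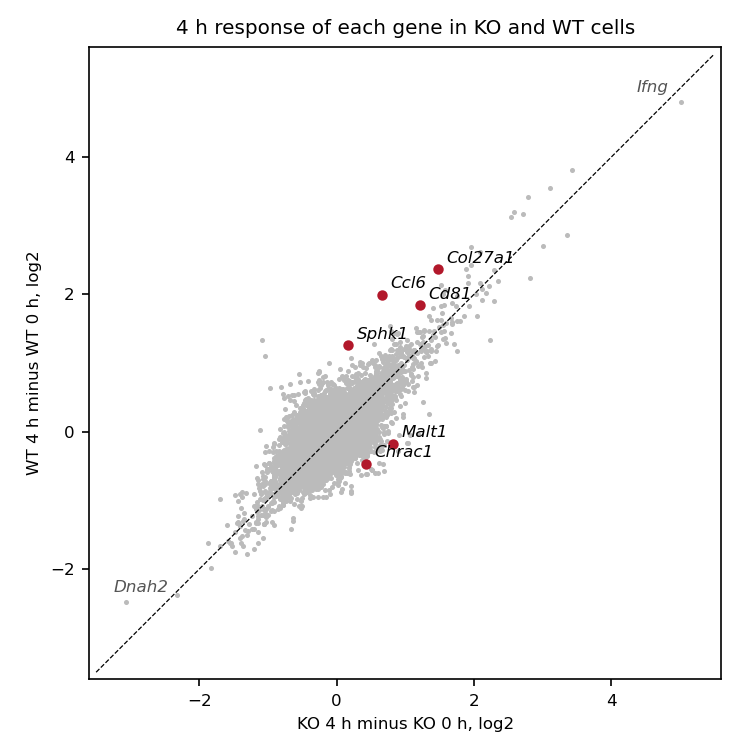
Change from 0 h to 4 h of each tested gene on the log2 scale, in KO cells (horizontal axis) and WT cells (vertical axis); the dashed line marks equal change. The 6 genes whose responses differed at adjusted p under 0.05 are the labelled red points and lie off the line, with Malt1 and Chrac1 below it.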

How the data were processed

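RNA of 12 samples was hybridised to Affymetrix mouse 3' arrays, 1 array per sample. The deposited values are intensity values per probe set on a linear scale, summarised with MAS5 per the submitters' processing notes; the MAS5 version, scaling target and detection calls are not given in the sources used here. Signals were quantile-normalized, 16 was added, and log2 was taken (limma 3.58.1, R 4.3.3; figures with Python 3.11.15, pandas 2.3.3 and matplotlib 3.10.9). Of 45101 probe sets, 34958 had 1 gene symbol, 932 several and 9211 none, and only the first were used. Each of 18194 genes was read by its brightest probe set, and 12792 with a mean at or above the 40th percentile (4.73 on the log2 scale) were tested. A model of 6 group means over all 12 arrays was fitted with limma (eBayes with trend, 6 residual and 9.13 prior degrees of freedom), and calls had a Benjamini-Hochberg adjusted p under 0.05 over all tested genes. The number of arrays limits the precision. The procedure was tested on simulated data. Alternatives changed the scaling, added constant, filter, probe set choice, variance model, arrays and threshold.

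The members and the 39 lists (1107 genes, 104 without a named probe set here) were chosen with earlier results of these data known. Genes were named as the 12 most changed called genes in each direction, the 6 in each direction for the other comparisons, and up to 4 called members per list and direction. Unchanged list members were named for contrast, with their values.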

Additional observations from a re-analysis of the deposited data

Results flagged for a closer look

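A test of the difference between the KO and WT responses from 0 h to 4 h singled out 6 genes, each by the interaction term of the limma fit with adjusted p under 0.05. The KO response was lower for Ccl6 by -1.331 on the log2 scale (adjusted p = 0.00501), for Sphk1 by -1.088 (0.0153), for Col27a1 by -0.894 (0.0401) and for Cd81 by -0.632 (0.0401). It was higher for Malt1 by 0.994 (0.00501) and for Chrac1 by 0.897 (0.0401). In Ccl6, Col27a1 and Cd81 both genotypes rose, although the KO call of Ccl6 was lost on the deposited scale. Sphk1 gave 8.21 and 8.37 at 4 h against 8.16 and 8.09 at 0 h in KO cells, and 8.82 and 8.71 at 4 h against 7.63 and 7.37 at 0 h in WT cells.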

How the results depend on the processing

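The calls rest on 2 arrays a group and on the scaling. On the deposited scale the counts were 189 higher and 664 lower for KO 4 h against 0 h, 260 and 43 for KO 4 h against 2 h, and 0 and 2 for the KO minus WT response, and 97 of 234 named calls were lost. Requiring a log2 change of 1 left 146 and 112, 43 and 62, and 0 and 2. The response difference had 0 and 0 calls with eBayes without trend or with the mean of all probe sets, 1 and 2 with no filter, and 1 higher with an added constant of 1 or without _x_at and _s_at probe sets. Leaving out 1 array at a time gave 683 to 945 higher and 890 to 1384 lower against 0 h, 366 to 856 higher and 539 to 941 lower against 2 h, and 0 to 2 higher and 0 to 4 lower for the difference. Without _x_at and _s_at probe sets Laptm5 (0.802) and Stmn1 (0.106) changed sign. The cause of these shifts was not tested. The labels do not say whether the array letters pair the samples. Deviations of KO 0 h and KO 4 h correlated at r = -0.042, which with 2 arrays a group cannot settle it. A fit with the replicate letter as a block gave 984 and 1441, 876 and 971, and 2 and 4 calls. Genes near the filter, such as Il12a and Il23a, are limited by signal over background.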
